A study of Mus musculus with 24 samples.

Results

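The levels of 10 genes that mark astrocytes, or that carry out their transport and metabolic work, were followed across the 4 groups of a study of the mouse visual cortex: Slc1a2, Slc1a3, Glul, Gja1, Gjb6, Aqp4, Aldh1l1, Aldoc, Gfap and S100b. They were chosen by name, not by their values, and make up 10 of the 55414 genes in the count table and 10 of the 14464 genes tested, so that every one of them passed the filter on low counts. Polyadenylated RNA from the visual cortex of 24 male C57BL/6J mice, 8 to 10 weeks old and kept on a reversed light cycle, was sequenced, each of the 4 groups holding 6 mice with 1 library apiece. Mice in the dark group received PBS and stayed in the dark, mice in the light group received PBS and were moved into light, mice in the psilocybin-dark group received 5 mg/kg psilocybin and stayed in the dark, and mice in the psilocybin-light group received 5 mg/kg psilocybin and were moved into light. All tissue was taken after 2.5 h. Psilocybin is a psychedelic whose active product stimulates serotonin receptors. Total counts ranged from 13552516 to 17906994 per library.

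The light exposure of the libraries has 2 conflicting sources. The groups used here follow the headings of the study's supplementary count table, where libraries 1 to 6 are dark, 7 to 12 psilocybin-dark, 13 to 18 light and 19 to 24 psilocybin-light. Each sample's own label names an identical drug but reverses the light exposure, for all 24 libraries. By the labels, the libraries called dark here would be light and those called psilocybin-dark would be psilocybin-light, and the reverse. The differences between 2 sets of libraries stay the same under either naming, but the direction of every effect of light given below would turn. The effects of psilocybin would change as well. By the labels, psilocybin-dark against dark would compare libraries 19 to 24 with 13 to 18. There 1 of the 10 genes was differentially expressed (adjusted p under 0.05) in place of 3, and 0.608% of all genes in place of 24.7%.

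Astrocytes take up the glutamate that neurons release, through the transporters GLT-1 (Slc1a2) and GLAST (Slc1a3), and turn it into glutamine with glutamine synthetase (Glul) for return to neurons. They are joined into networks by gap junctions of connexin 43 (Gja1) and connexin 30 (Gjb6), and their end feet on blood vessels carry the water channel aquaporin 4 (Aqp4). Aldh1l1 encodes an enzyme of folate metabolism and Aldoc a glycolytic aldolase, both used as markers of the whole astrocyte population, while Gfap encodes the intermediate filament that rises in reactive astrocytes and S100b a calcium-binding protein. In cortex Gfap is found mainly in astrocytes near the pia, white matter and vessels, Slc1a3 and S100b are also strong in the Bergmann glia of the cerebellum, and S100b is present in part of the oligodendrocyte lineage.

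Promoters are shown for Gja1, which differed between 5 of the 6 pairs of groups, for Gjb6, its partner connexin, which passed no test, and for Aldh1l1, which moved the other way from Gja1. Each is the 250 bases before the transcription start in RefSeq's table for GRCm38.p6, given 5′ to 3′ on the gene's strand, with capitals marking the one match among the 6 motifs searched. An entry was found for 9 of the 10 genes.
Gja1, chr10:56377050-56377299, plus strand: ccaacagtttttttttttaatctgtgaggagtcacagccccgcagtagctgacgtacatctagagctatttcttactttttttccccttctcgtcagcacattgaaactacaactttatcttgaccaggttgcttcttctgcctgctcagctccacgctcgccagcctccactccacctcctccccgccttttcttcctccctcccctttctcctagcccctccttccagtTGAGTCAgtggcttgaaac
Gjb6, chr14:57133612-57133861, minus strand: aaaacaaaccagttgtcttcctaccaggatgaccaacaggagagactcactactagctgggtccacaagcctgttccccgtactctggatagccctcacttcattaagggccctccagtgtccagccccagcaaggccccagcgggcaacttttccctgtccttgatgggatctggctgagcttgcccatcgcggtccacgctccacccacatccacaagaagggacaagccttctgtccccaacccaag
Aldh1l1, chr6:90550543-90550792, plus strand: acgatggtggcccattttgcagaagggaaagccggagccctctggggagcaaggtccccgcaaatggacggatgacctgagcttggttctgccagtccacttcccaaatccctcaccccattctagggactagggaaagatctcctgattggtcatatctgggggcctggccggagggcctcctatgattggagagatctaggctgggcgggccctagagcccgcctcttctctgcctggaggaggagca

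The capitals in the Gja1 promoter are a match to the AP-1 motif TGANTCA, 19 to 13 bases before the start, and 6.75% of 32851 promoters of the same length hold such a match on either strand. The other motifs searched on both strands were the cyclic AMP response element TGACGTCA (found in 1.55% of promoters), the EGR motif GCGNGGGCG (4.7%), the palindromic NFI motif (0.0365%), the STAT motif TTCNNNGAA (7.02%) and the TATA box TATAAA (12.4%). No motif was matched in the windows of Gjb6 and Aldh1l1. Among the other members, the second of the 2 Aldoc windows held 2 STAT matches, and the Slc1a3 window held 1 STAT match and 1 TATA box match. GC content was 50% in the Gja1 window, 56.8% in that of Gjb6 and 59.6% in that of Aldh1l1, against a median of 52.4% over all promoters.

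Against the dark group, Gja1 was lower and Aldh1l1 higher in each of the other 3 groups, Aqp4 was lower in all 3, Glul was higher in the light group and Slc1a3 lower in the psilocybin-light group. In the light group 4 of the 10 genes were differentially expressed (adjusted p under 0.05), 2 higher and 2 lower, where 31.9% of all genes tested were called (15.4% higher and 16.5% lower). In the psilocybin-dark group 3 of 10 were called, 1 higher and 2 lower, against 24.7% of all genes (11.9% higher and 12.8% lower). In the psilocybin-light group 4 of 10 were called, 1 higher and 3 lower, against 38.4% of all genes (17.4% higher and 21.0% lower). These shares of the members were near those of all genes, and the 3 comparisons share the 6 dark libraries. The median log2 fold change of the members was -0.17, -0.21 and -0.32 in the 3 comparisons, beside -0.01, -0.02 and -0.02 over all genes.

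Fewer members differed among the 3 exposed groups. Between psilocybin-light and light, Gja1 was the 1 member called and was lower, against 0.608% of all genes called and 0.553% called lower. Between psilocybin-light and psilocybin-dark, Gja1 and Slc1a2 were lower, 2 of 10 members against 6.38% of all genes called and 3.78% called lower. Between psilocybin-dark and light, 0 of 10 members were called by edgeR, against 0.456% of all genes, 0 had an unadjusted p under 0.05, and 0 were called by DESeq2. The 6 libraries of each group lay entirely apart for 3 members in light against dark (10.0% of all genes), 2 in psilocybin-dark against dark (5.58%) and 3 in psilocybin-light against dark (15.8%). In the other comparisons they lay apart for 0 members, against 1.62% of all genes in psilocybin-light against light, 6.42% in psilocybin-light against psilocybin-dark and 2.21% in psilocybin-dark against light.

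**Figure D1:**
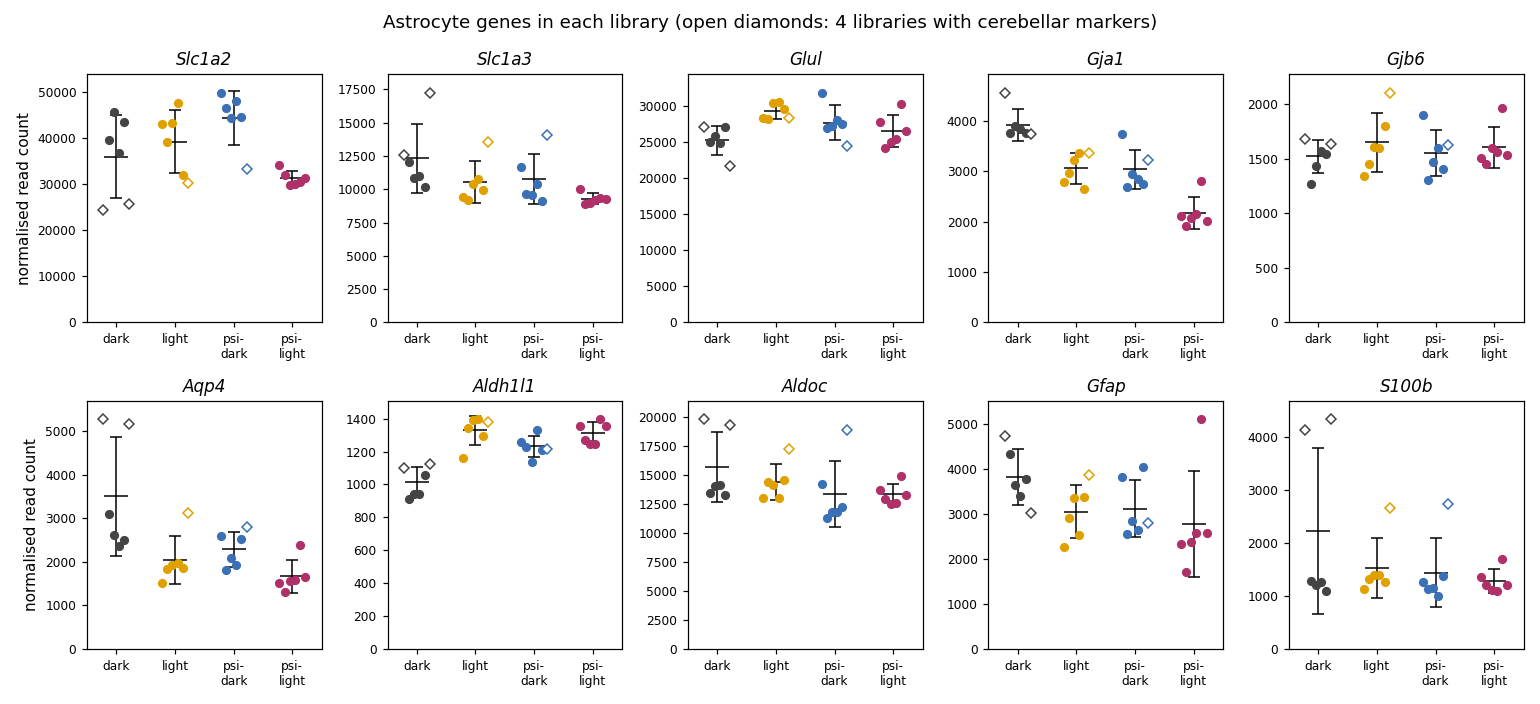
Normalised read counts (y axes, each from 0) of the 10 astrocyte genes in the 24 libraries, 6 per group (x axes), with bars for the group mean and error bars for the SD. Gja1 falls from a dark mean of 3924 to a psilocybin-light mean of 2176, Gjb6 stays between 1523 and 1652, and the open diamonds, 4 libraries with cerebellar markers, are high for S100b and low for Slc1a2.

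Before the single genes, 4 libraries have to be set apart. The summed level of 10 cerebellar marker genes was 2477 CPM (counts scaled to library size) in dark library 1, 5122 in dark library 6, 2366 in psilocybin-dark library 12 and 1485 in light library 18, and at most 213 in the other 20 libraries. The most abundant of these markers were Car8, a carbonic anhydrase-related protein of Purkinje cells, and Cbln3, a cerebellin of granule cells. In all 4 libraries S100b, Aqp4, Slc1a3 and Aldoc were above, and Slc1a2 below, every remaining library of their group. S100b was 2.04 to 3.58 times the mean of those remaining, Aqp4 1.28 to 2.00 times, Slc1a3 1.14 to 1.57 times and Aldoc 1.25 to 1.54 times, while Slc1a2 was 0.588 to 0.739 times. Gja1 was within 0.981 to 1.20 times and Aldh1l1 within 0.986 to 1.17 times. Each result is therefore also given without these 4 libraries, which leaves 4 dark, 5 light, 5 psilocybin-dark and 6 psilocybin-light libraries. That alternative was chosen after the data were seen. It gave 4 of 10 members called in light against dark (43.1% of all genes), 3 in psilocybin-dark against dark (38.3%) and 5 in psilocybin-light against dark (48.2%). It gave 2 in psilocybin-light against light (2.34%) and 3 in psilocybin-light against psilocybin-dark (17.2%).

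Markers of the hippocampus moved with the dark group itself. Their summed level was 73.2 to 357 CPM in the 6 dark libraries and at most 55.8 CPM in the other 18, without overlap. In every comparison against dark the exposure and these markers therefore cannot be told apart. The same limit holds for the interaction given below (the change under both exposures less the sum of the single ones), since it includes the dark group. All 8 hippocampal markers tested were positive in the interaction, with a median of 0.72 beside 0.004 over all genes. Of the 8 hippocampal markers tested, 4 were lower in the light group than in the dark group. The 2 most abundant were Fibcd1, lower in light by a log2 fold change of -3.51 (adjusted p = 3.4e-06), and Prox1, a granule cell factor of the dentate gyrus, at -0.86 (adjusted p = 0.0164). Markers of the meninges, choroid plexus and ependyma summed to 81.1 to 338 CPM in the dark group, 39.1 to 164 CPM in light, 30.6 to 95.3 CPM in psilocybin-dark and 30.6 to 79.6 CPM in psilocybin-light libraries, so that the first 3 groups overlapped. Oligodendrocyte markers ranged from 1219 to 8284 CPM in the dark group, with dark library 1 the highest of all 24. Dark libraries 2 (1219), 3 (1766) and 4 (1321) lay below every library of the other groups. Those ranged from 3130 to 5092 CPM in light, 2563 to 5192 in psilocybin-dark and 2772 to 5952 in psilocybin-light. None of the 8 markers was called against dark. Neuron markers summed to 5727 to 9750 CPM in the dark group and to 9235 to 11675 CPM in the other 18 libraries, and without the 4 libraries with cerebellar markers the highest dark library (9750) lay below the lowest of the others (9769). Of 8 neuron markers, 3 were higher and 1 lower in light, 2 and 1 in psilocybin-dark, and 3 and 1 in psilocybin-light. The 2 most abundant were Camk2a, a kinase of excitatory neurons, at 0.52 in light (adjusted p = 0.0793), and Snap25, a protein of synaptic vesicle fusion, at 0.38 (adjusted p = 0.00418). The inhibitory neuron markers went the other way in light. Gad2 was at -0.29 (adjusted p = 0.000399), Gad1 at -0.12 (adjusted p = 0.387) and Slc32a1 at -0.14 (adjusted p = 0.421). They were also negative in psilocybin-dark and psilocybin-light, so the summed level does not describe every neuron marker. Microglia markers summed to 250 to 398 CPM in dark and 377 to 443 CPM in light libraries, with 4 of 8 higher in light, 1 in psilocybin-dark and 3 in psilocybin-light. Markers of oligodendrocyte precursors summed to 155 to 259 CPM in dark and 146 to 181 CPM in psilocybin-light libraries, with 1 of 5 lower in light, 3 in psilocybin-dark and 4 in psilocybin-light.

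No marker in these lists was at 0 in every library of a group. The part of these markers in the results below was not tested. Within the bulk tissue, fewer astrocytes and less RNA per astrocyte cannot be told apart.

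**Figure D2:**
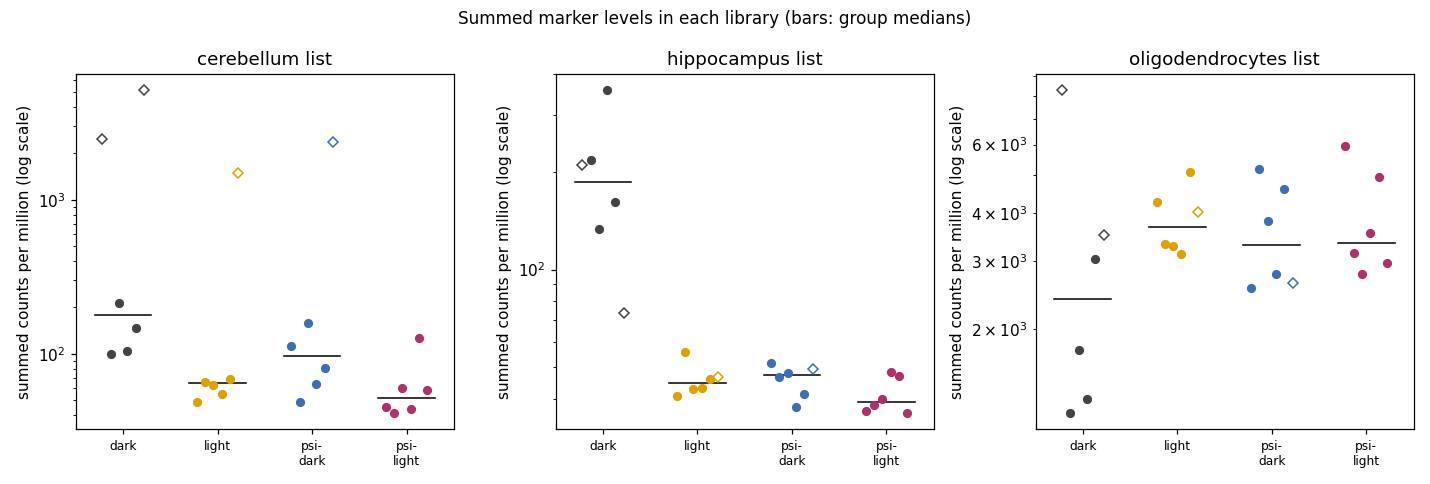
Summed level of the cerebellum, hippocampus and oligodendrocyte marker lists (y axes, CPM on a log scale) in each library of the 4 groups, with bars for group medians. The open diamonds are the 4 libraries above 1000 CPM of cerebellar markers, and all 6 dark libraries lie above the other 18 for the hippocampus list.

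All 10 genes were abundant, with at least 872 counts in every library. Per length of all annotated exons, Glul was the most abundant of them at 429 ± 37.8 RPKM (reads scaled by length and depth, mean ± SD, n = 24), followed by Aldoc at 189 ± 31.1 and Slc1a2 at 168 ± 34.5 RPKM. S100b (50.4 RPKM), Slc1a3 (45.7), Gfap (34.8), Gjb6 (25.1) and Aqp4 (22.6) were intermediate, and Gja1 (15.4) and Aldh1l1 (8.93) were the lowest. The order depended on the length used, since Slc1a3 stood at 128 RPKM and Gja1 at 33.2 RPKM when the longest transcript was taken. Levels of different genes are compared on this scale only. The summed level of the 10 genes was 6240 to 6865 CPM in the dark group, 6131 to 7119 in the light group, 6523 to 7614 in psilocybin-dark libraries and 5369 to 6246 in psilocybin-light libraries. Annotated exons of 6 of the genes overlap those of other genes, none of which held more than 138 counts in a library where it was in the count table.

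Of the connexin genes, Gja1 fell in every comparison against dark and Gjb6 passed no test. Gja1 (connexin 43, ENSMUSG00000050953, chr10:56253241-56278609 in GRCm39) was at 3738 to 4560 normalised read counts in the 6 dark libraries, with a median of 3802. It was at 2644 to 3367 with a median of 3089 in the light group, and at 2688 to 3730 with a median of 2900 in the psilocybin-dark group. In the psilocybin-light group it was at 1921 to 2807 with a median of 2087. Every library of the 3 exposed groups lay below every dark library, the nearest being psilocybin-dark library 7 at 3730 against dark library 6 at 3738.

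Group means of Gja1 were 3924 ± 317 (dark), 3057 ± 305 (light), 3033 ± 391 (psilocybin-dark) and 2176 ± 319 (psilocybin-light) normalised read counts (SD, n = 6 each). Gja1 fell in the light group to 0.779 of the dark level (log2 fold change -0.36, SE 0.09, adjusted p = 0.0041) and in the psilocybin-dark group to 0.773 of it (-0.37, adjusted p = 0.00448). It fell in the psilocybin-light group to 0.555 of the dark level (-0.85, SE 0.09, adjusted p = 6.06e-07). Light and psilocybin-dark, which lie next to each other in the order of levels, did not pass the test of their difference (-0.01, 95% interval -0.20 to 0.18).

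The psilocybin-light group was also below each single exposure for Gja1, by -0.49 against light (adjusted p = 0.0133) and by -0.48 against psilocybin-dark (adjusted p = 0.00281). In both comparisons the groups overlapped through psilocybin-light library 23, which at 2807 stood above the other 5 of its group (1921 to 2149). The call against light was lost when psilocybin-light library 19 (-0.47, adjusted p = 0.0541), 20 (-0.45, adjusted p = 0.0574) or 24 (-0.46, adjusted p = 0.0595) was left out. The changes of Gja1 without the 4 libraries with cerebellar markers were -0.35, -0.35 and -0.80 against dark, -0.45 against light and -0.45 against psilocybin-dark, and all 5 were called. The interaction, the change under both exposures less the sum of the single ones, was -0.12 for Gja1 (95% interval -0.38 to 0.15, adjusted p = 0.628).

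Gjb6 (connexin 30, ENSMUSG00000040055, chr14:57360757-57371087) was at 1272 to 1685 normalised read counts in the dark group and at 1341 to 2107 in the light group. It was at 1302 to 1902 in the psilocybin-dark group and at 1448 to 1966 in the psilocybin-light group. The 4 groups overlapped throughout. Its means were 1523 ± 149, 1652 ± 272, 1550 ± 211 and 1605 ± 185, and none of its 6 group differences passed the test. Against dark, the log2 fold change of Gjb6 was 0.12 in light (95% interval -0.10 to 0.33), 0.03 in psilocybin-dark (-0.19 to 0.24) and 0.08 in psilocybin-light (-0.14 to 0.29). Without the 4 libraries with cerebellar markers these changes were 0.10, 0.07 and 0.15, and none was called.

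The ratio of Gja1 to Gjb6 within each library was chosen after the values were seen and is given as a description. The log2 ratio of Gja1 to Gjb6 read counts was 1.37 ± 0.14 in the dark group (1.20 to 1.57) and 0.90 ± 0.23 in the light group (0.55 to 1.07). It was 0.97 ± 0.07 in the psilocybin-dark group (0.84 to 1.05) and 0.44 ± 0.06 in the psilocybin-light group (0.37 to 0.51). Dark libraries lay above all others, psilocybin-light libraries below all others, and the light and psilocybin-dark groups overlapped. Psilocybin-light library 23, which was high for both genes, lay with its group in the ratio.

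**Figure D3:**
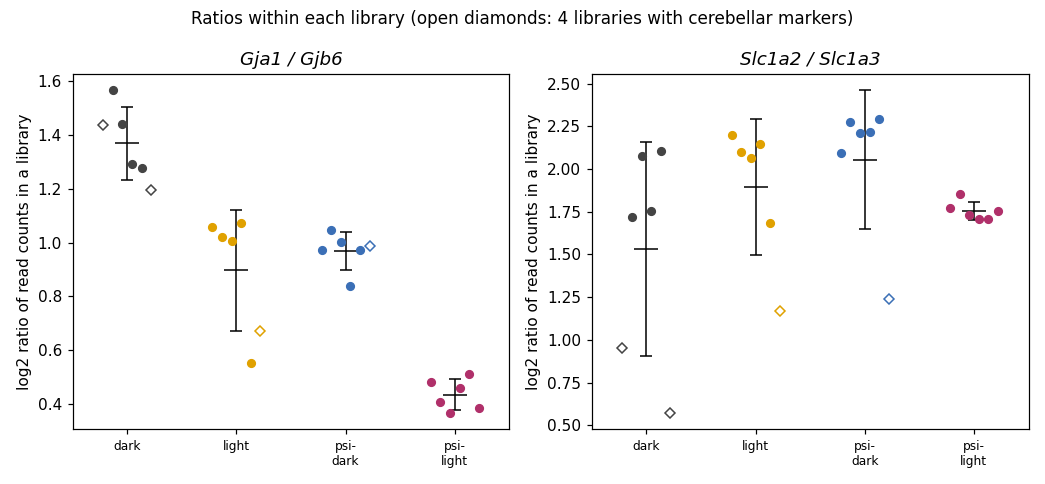
Log2 ratio of read counts within each library for Gja1 to Gjb6 and for Slc1a2 to Slc1a3 (y axes) by group, with group mean and SD and open diamonds for the 4 libraries with cerebellar markers. The Gja1 to Gjb6 ratio spans 1.20 to 1.57 in dark and 0.37 to 0.51 in psilocybin-light libraries, while the 4 diamonds are the lowest of their groups for Slc1a2 to Slc1a3.

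Of the glutamate transporters, Slc1a2 (GLT-1, ENSMUSG00000005089, chr2:102488574-102621129) was at 24391 to 45755 normalised read counts in the dark group and at 30371 to 47702 in the light group. It was at 33279 to 49981 in the psilocybin-dark group and at 29816 to 34232 in the psilocybin-light group. The lowest value of each of the first 3 groups came from the libraries with cerebellar markers, and the psilocybin-light group, which held none of these, had the smallest spread. The means were 36022 ± 9046, 39326 ± 6839, 44510 ± 5892 and 31312 ± 1646.

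Slc1a2 was lower in psilocybin-light than in psilocybin-dark by -0.51 on the log2 scale (SE 0.14, adjusted p = 0.0313), to 0.703 of its level. The call was lost when any 1 of psilocybin-dark libraries 7 to 11 or psilocybin-light libraries 20 to 24 was left out, with values of -0.57 to -0.47 over all 24 such fits and an adjusted p of up to 0.0704. Among the 20 other libraries, Slc1a2 was at 46757 ± 2356 in psilocybin-dark (n = 5) and 31312 ± 1646 in psilocybin-light (n = 6), a change of -0.57 (adjusted p = 0.000167). It was then also called against light (-0.39, adjusted p = 0.0088) and against dark (-0.40, adjusted p = 0.00034), where all 24 libraries gave -0.33 (adjusted p = 0.429) and -0.20 (adjusted p = 0.269). Light and psilocybin-dark did not pass the test against dark, at 0.13 (95% interval -0.16 to 0.42) and 0.31 (0.01 to 0.60, adjusted p = 0.118). These became -0.01 (adjusted p = 0.921) and 0.17 (adjusted p = 0.12) without the 4 libraries, and psilocybin-dark was called at 0.38 (adjusted p = 0.0433) without its library 12 alone.

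Slc1a3 (GLAST, ENSMUSG00000005360, chr15:8663604-8741595) was at 10142 to 17270 normalised read counts in the dark group and at 9161 to 13516 in the light group. It was at 9129 to 14114 in the psilocybin-dark group and at 8864 to 10017 in the psilocybin-light group. Only the psilocybin-light group lay wholly below the dark group. Slc1a3 fell there to 0.754 of the dark level (-0.41, SE 0.12, adjusted p = 0.00937), from a mean of 12315 ± 2583 to 9282 ± 404. Dark library 6, at 17270, stood far above the others of its group. The change was -0.24 (adjusted p = 0.08) with dark libraries 1 and 6 left out and -0.24 (adjusted p = 0.00401) without all 4 libraries with cerebellar markers. In light the change was -0.23 (adjusted p = 0.154), or -0.31 (adjusted p = 0.0438) without light library 18.

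Glul (glutamine synthetase, ENSMUSG00000026473, chr1:153775690-153785469) was at 21693 to 27111 normalised read counts in the dark group and at 28275 to 30643 in the light group, without overlap. Its level rose in light to 1.16 times that in dark (0.21, SE 0.06, adjusted p = 0.0134), from a mean of 25264 ± 2005 to 29289 ± 1094. The psilocybin-dark group at 24488 to 31889 and the psilocybin-light group at 24223 to 30267 overlapped both. Their changes against dark were 0.13 (adjusted p = 0.135) and 0.07 (adjusted p = 0.406). The change in light was 0.20 (adjusted p = 0.0114) with the 4 libraries left out.

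Other genes of glutamate and glutamine handling were measured beside these 3. Of 13 such genes, 1 was higher and 2 were lower in light than in dark, 1 was higher and 2 lower in psilocybin-dark, and 1 was higher and 4 lower in psilocybin-light. All genes were called at 31.9%, 24.7% and 38.4%, and the medians of the list were -0.12, -0.07 and -0.28. Gls2, the liver-type glutaminase, rose by 0.75 in light (adjusted p = 0.00287) and 0.55 in psilocybin-dark (adjusted p = 0.0279). Glud1, glutamate dehydrogenase, fell by 0.24 and 0.26 on the log2 scale (adjusted p = 0.00133 and 0.000788). Slc6a11, the GABA transporter GAT-3 of astrocytes, fell by 0.65 and 0.79 (adjusted p = 0.0254 and 0.0108). Slc6a11 was at -0.38 (adjusted p = 0.0628) in light without the 4 libraries with cerebellar markers. The counts of called genes in the list were then 2 higher and 4 lower in light (43.1% of all genes called) and 3 higher and 4 lower in psilocybin-dark (38.3%).

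Aqp4 (ENSMUSG00000024411) was at 2363 to 5285 normalised read counts in the dark group, with a median of 2854, and at 1511 to 3119 in the light group, with a median of 1889. It was at 1804 to 2805 in the psilocybin-dark group and at 1309 to 2398 in the psilocybin-light group, with medians of 2303 and 1573. Dark libraries 1 (5285) and 6 (5181) stood above the other 4 of their group (2363 to 3100). The groups overlapped in each comparison. Aqp4 fell by 0.78 on the log2 scale in light (SE 0.21, adjusted p = 0.00624), by 0.62 in psilocybin-dark (adjusted p = 0.0332) and by 1.07 in psilocybin-light (adjusted p = 0.000366).

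The change of Aqp4 was smaller without these libraries. Without the 4 libraries it was -0.53 in light (adjusted p = 0.00388), -0.28 in psilocybin-dark (adjusted p = 0.12) and -0.65 in psilocybin-light (adjusted p = 0.000391). With dark libraries 1 and 6 left out it was -0.37 in light (adjusted p = 0.0997). The call in psilocybin-dark was also lost with 1 library left out, for dark library 1 (-0.46) or 6 (-0.47) and for psilocybin-dark library 8 (-0.56), 9 (-0.59) or 10 (-0.57). The change of Aqp4 from psilocybin-dark to psilocybin-light was -0.45 (adjusted p = 0.222), and -0.38 (adjusted p = 0.0451) without the 4 libraries.

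Of 11 other genes of potassium and water handling, 2 were lower in light than in dark, 1 was higher and 1 lower in psilocybin-dark, and 4 were lower in psilocybin-light, against 31.9%, 24.7% and 38.4% of all genes called. Kcnj16, an inward rectifier potassium channel subunit that pairs with Kir4.1, fell from 696 ± 114 to 383 ± 60.6 normalised read counts in light (-0.86, adjusted p = 3.14e-05) and to 395 ± 69.2 in psilocybin-dark (-0.82, adjusted p = 0.000106). Aqp9, a water and glycerol channel, fell in light from 36.0 ± 4.87 to 22.9 ± 7.49 (-0.66, adjusted p = 0.0388). Dtna, dystrobrevin alpha of the end-foot complex that anchors Aqp4, rose in psilocybin-dark by 0.21 (adjusted p = 0.0463). These 4 calls kept their direction and side of the threshold without the 4 libraries, with Dtna then at 0.34 in psilocybin-dark and 0.31 in light.

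Aldh1l1 (ENSMUSG00000030088, chr6:90463409-90577185) rose where Gja1 fell. It was at 913 to 1126 normalised read counts in the dark group and at 1159 to 1398 in the light group. It was at 1137 to 1332 in the psilocybin-dark group and at 1244 to 1397 in the psilocybin-light group. Every library of the 3 exposed groups lay above every dark library. The mean rose from 1013 ± 92.3 to 1328 ± 91.2 in light (0.39, SE 0.06, adjusted p = 2.82e-05), to 1231 ± 64.1 in psilocybin-dark (0.28, adjusted p = 0.00111) and to 1311 ± 65.8 in psilocybin-light (0.37, adjusted p = 3.14e-05). Leaving out any 1 library gave 0.36 to 0.43 in light, and leaving out all 4 libraries with cerebellar markers gave 0.45, 0.35 and 0.45 in the 3 groups, all called.

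Between the exposed groups Aldh1l1 did not pass the test, with -0.02 for psilocybin-light against light (95% interval -0.14 to 0.10) and 0.09 for psilocybin-light against psilocybin-dark (-0.03 to 0.21). Its interaction was -0.30 (SE 0.08, adjusted p = 0.0242), meaning that the level under both exposures was below the sum of the single changes. Of the 10 members, 2 were called for the interaction, both negative, against 8.75% of all genes called and 4.86% called negative. The other was Slc1a2, at -0.63 (SE 0.20, adjusted p = 0.0481). For Slc1a2 the call was lost in 18 of the 24 fits without 1 library, with values of -0.71 to -0.54 and an adjusted p of up to 0.0895. Those were the fits without dark library 1, 2 or 4, any of psilocybin-dark libraries 7 to 11, any of light libraries 13 to 16 or any psilocybin-light library. Without the 4 libraries, the interaction was -0.55 for Slc1a2 (adjusted p = 0.00127), -0.35 for Aldh1l1 (adjusted p = 0.0029) and -0.28 for Glul (adjusted p = 0.0137), 3 of 10 members against 27.0% of all genes. Glul was at -0.28 (adjusted p = 0.0581) with all libraries.

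**Figure D4:**
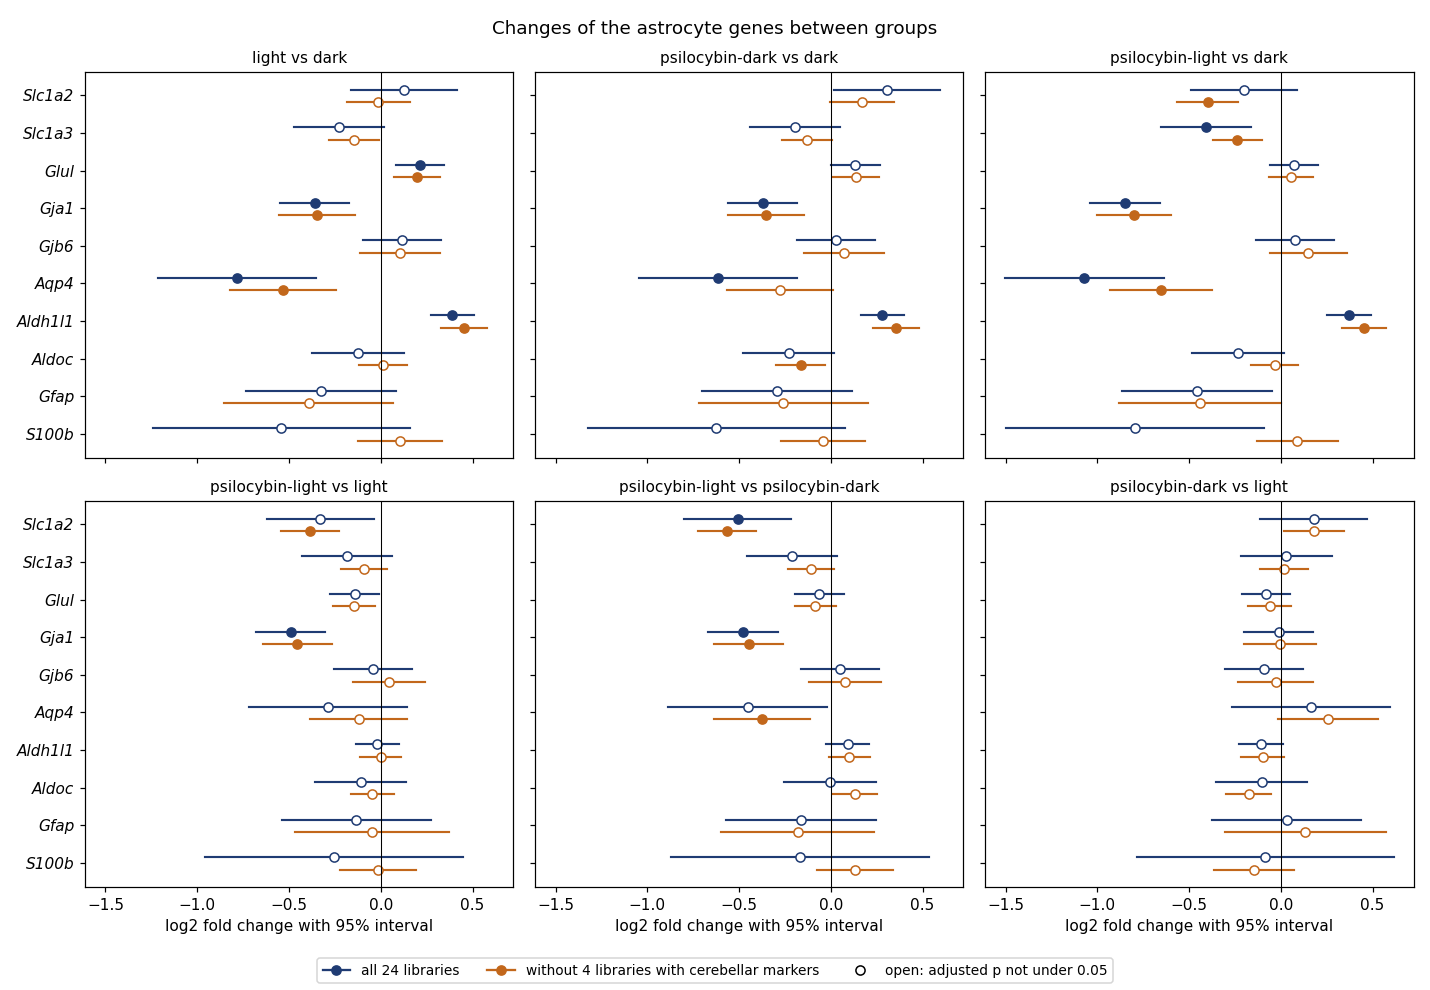
Log2 fold change with its 95% interval (x axes) of the 10 astrocyte genes in the 6 group comparisons, from all 24 libraries (blue) and without the 4 libraries with cerebellar markers (orange), filled where the adjusted p is under 0.05. Gja1 lies left of 0 in the 5 comparisons other than psilocybin-dark against light, Aldh1l1 right of 0 against dark, and S100b moves from -0.79 to 0.09 in psilocybin-light against dark when the 4 libraries are left out.

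Aldoc (aldolase C, ENSMUSG00000017390, chr11:78213619-78218889) was at 13286 to 19788 normalised read counts in the dark group and at 12947 to 17185 in the light group. It was at 11238 to 18819 in the psilocybin-dark group and at 12459 to 14906 in the psilocybin-light group. The highest value of each of the first 3 groups was a library with cerebellar markers. No group difference of Aldoc passed the test with all libraries, and against dark the changes were -0.12, -0.23 and -0.23 in light, psilocybin-dark and psilocybin-light. Without psilocybin-dark library 12 the change in psilocybin-dark was -0.35 (adjusted p = 0.0161), and without the 4 libraries it was -0.17 (adjusted p = 0.0432).

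Of 18 other genes of glycolysis, lactate and glycogen, 4 were higher and 2 lower in light than in dark, 5 higher and 3 lower in psilocybin-dark, and 6 higher and 3 lower in psilocybin-light, where 31.9%, 24.7% and 38.4% of all genes were called. The medians were 0.12, 0.13 and 0.14. Ppp1r3g and Ppp1r3c encode subunits that bring protein phosphatase 1 to glycogen. Ppp1r3g rose from 160 ± 56.5 to 293 ± 56.3 normalised read counts in light (0.87, adjusted p = 0.000917) and to 315 ± 28.9 in psilocybin-dark (0.98, adjusted p = 0.000485). Ppp1r3c rose by 0.51 (adjusted p = 0.00327) and 0.60 (adjusted p = 0.00146). The glycogen phosphorylase Pygb fell by 0.22 in light (adjusted p = 0.0311) and 0.30 in psilocybin-dark (adjusted p = 0.00556), and Pygm fell by 0.60 in psilocybin-dark (adjusted p = 0.0142). The lactate transporter Slc16a1 fell by 0.51 in light (adjusted p = 0.000795). Leaving out the 4 libraries gave 6 higher and 4 lower in light, and 7 higher and 4 lower in psilocybin-dark, against 43.1% and 38.3% of all genes called. Pfkfb3, a regulator of glycolytic flux named after its values were seen, was then at 0.62 in light (adjusted p = 0.000926) and 0.93 in psilocybin-dark (adjusted p = 1.88e-05). With all libraries it was at 0.34 (adjusted p = 0.165) and 0.55 (adjusted p = 0.0332).

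Gfap (ENSMUSG00000020932, chr11:102778159-102791738) was at 3008 to 4735 normalised read counts in the dark group and at 2263 to 3868 in the light group. It was at 2556 to 4030 in the psilocybin-dark group and at 1708 to 5106 in the psilocybin-light group. The highest and the lowest of all 24 libraries were both psilocybin-light libraries. No difference of Gfap passed the test, and against dark the changes were -0.33 in light (adjusted p = 0.217), -0.29 in psilocybin-dark (adjusted p = 0.294) and -0.46 in psilocybin-light (adjusted p = 0.0696). Without psilocybin-light library 23, which at 5106 stood far above the other 5 of its group, the last was -0.72 (adjusted p = 0.000915). Without the 4 libraries with cerebellar markers, Gfap was at -0.39 in light (adjusted p = 0.161) and -0.26 in psilocybin-dark (adjusted p = 0.381). In psilocybin-light it was then at -0.44 (adjusted p = 0.093), so no change against dark was called.

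Of 15 other filament and reactive astrocyte genes tested, 5 fell in light, 2 in psilocybin-dark and 4 in psilocybin-light against dark, where 16.5%, 12.8% and 21.0% of all genes were called lower. The rest were not called. Fabp7, a fatty acid binding protein of radial glia and astrocytes, fell from 655 ± 126 to 241 ± 94.3 normalised read counts in light (-1.44, adjusted p = 0.000121) and to 289 ± 131 in psilocybin-dark (-1.18, adjusted p = 0.00113). Cd44, a hyaluronan receptor, fell in light from 185 ± 115 to 47.2 ± 26.2 (-1.97, adjusted p = 0.00502). Serpina3n, a protease inhibitor induced in reactive astrocytes, fell in psilocybin-dark from 193 ± 73.2 to 86.7 ± 16.8 (-1.15, adjusted p = 0.00042). In the 20 libraries without cerebellar markers 7 fell in light and 4 in psilocybin-dark, where 43.1% and 38.3% of all genes were called in either direction. In psilocybin-light 7 then fell and 1 rose, where 48.2% of all genes were called.

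S100b (ENSMUSG00000033208, chr10:76085090-76097159) was at 1092 to 4342 normalised read counts in the dark group, with a median of 1272, and at 1131 to 2653 in the light group, with a median of 1357. It was at 989 to 2741 in the psilocybin-dark group and at 1096 to 1702 in the psilocybin-light group. Dark libraries 1 (4134) and 6 (4342), psilocybin-dark library 12 (2741) and light library 18 (2653) were the 4 highest of the 24. No difference of S100b passed the edgeR test. The change in psilocybin-light against dark was -0.79 (95% interval -1.50 to -0.09, adjusted p = 0.0677), and DESeq2 gave -0.79 (adjusted p = 0.0431). edgeR called it without dark library 2, 3, 4 or 5 or psilocybin-dark library 12, with values from -0.93 to -0.79, and also called psilocybin-dark against dark without psilocybin-dark library 12 (-0.91, adjusted p = 0.0439). In that fit 6 of the 10 members were called in psilocybin-dark, against 28.8% of all genes, the others being Gja1, Aldh1l1, Aqp4, Aldoc and Slc1a2. Without all 4 libraries with cerebellar markers, S100b was at 1211 ± 85.0 in dark (n = 4) and 1280 ± 227 in psilocybin-light (n = 6), a change of 0.09 (adjusted p = 0.519).

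Among 38 further astrocyte markers, 7 were higher and 5 lower in light than in dark (31.9% of all genes called), 4 higher and 11 lower in psilocybin-dark (24.7%), and 5 higher and 9 lower in psilocybin-light (38.4%). The median log2 fold changes of these 38 genes were 0.00, -0.20 and -0.11. Chrdl1, a secreted BMP antagonist that promotes synapse maturation, rose from 142 ± 71.7 to 398 ± 58.1 normalised read counts in light (1.49, adjusted p = 3.68e-05) and to 373 ± 71.8 in psilocybin-dark (1.39, adjusted p = 0.000134). Dio2, the deiodinase that activates thyroid hormone, rose by 0.76 (adjusted p = 0.000917) and 1.22 (adjusted p = 1.71e-05). Slc4a4, a sodium bicarbonate cotransporter, fell by 1.03 in light (adjusted p = 0.0011), and Slc14a1, a urea transporter, fell by 1.01 and 0.88 (adjusted p = 0.00018 and 0.00102). Itih3, a hyaluronan-binding heavy chain, fell by 0.89 in psilocybin-dark (adjusted p = 0.0436). These genes were called in the same direction without the 4 libraries, with Slc4a4 then at -0.65 in light. The list then had 9 higher and 6 lower in light (43.1% of all genes called), and 6 higher and 12 lower in psilocybin-dark (38.3%). Of 9 other gap junction genes, Tjp1, a scaffold protein of cell junctions, rose in psilocybin-dark (0.27, adjusted p = 0.0135) and was the 1 gene of this list called against dark. Without the 4 libraries 3 of the 9 were higher in light (43.1% of all genes called in either direction) and 4 in psilocybin-dark (38.3%).

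The 10 genes did not vary as one among mice of the same group. After the group means were subtracted, 34 of the 45 pairs of members correlated positively over the 24 libraries, and 41 of 45 did without the 4 libraries with cerebellar markers. The points share a library, its depth and its tissue composition, so the correlations are descriptions. With all libraries, Pearson's r was 0.92 between Aldoc and S100b and -0.85 between Slc1a2 and S100b, and without the 4 libraries it was 0.63 and 0.02. Aqp4 and Gfap moved from 0.56 to 0.93, and Gja1 and Glul from 0.56 to 0.81. Gja1 and Gjb6 were at 0.68 with all libraries and 0.67 without the 4. Without the 4 libraries the r of Slc1a2 with the other members lay between -0.24 and 0.35.

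**Figure D5:**
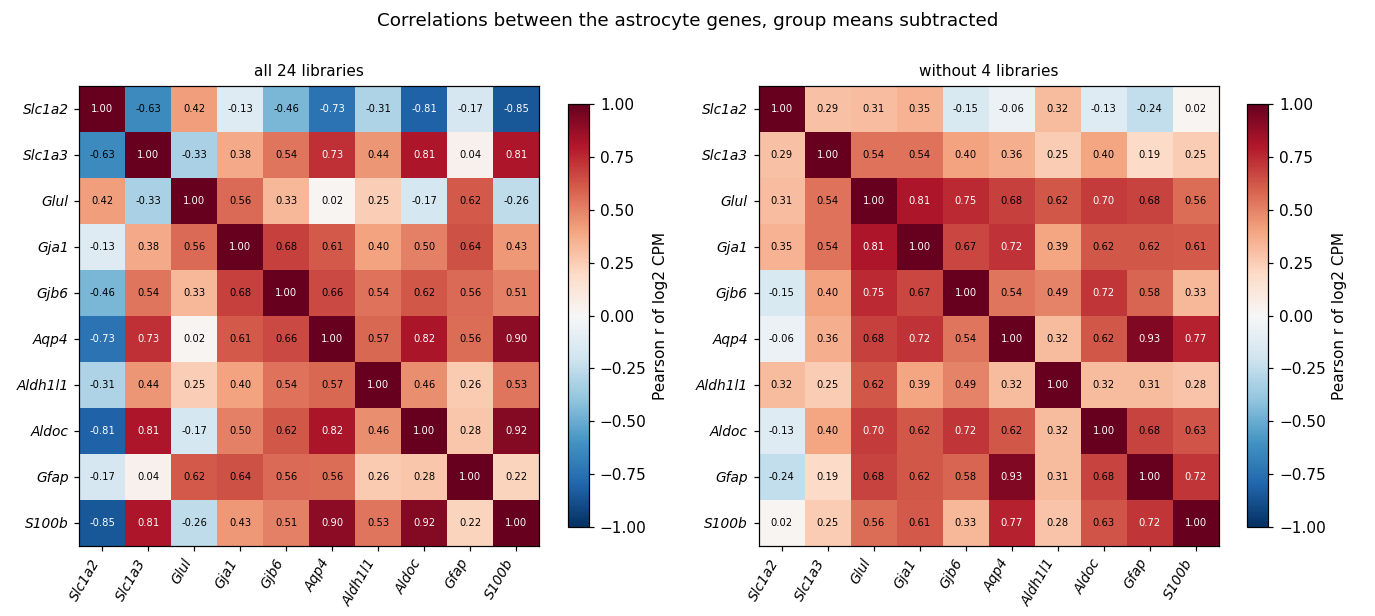
Pearson's r of log2 CPM between each pair of the 10 astrocyte genes after subtraction of group means, over all 24 libraries (left) and without the 4 libraries with cerebellar markers (right), with red for positive and blue for negative values. The row of Slc1a2 runs from -0.85 to 0.42 on the left and from -0.24 to 0.35 on the right, while Aqp4 with Gfap rises from 0.56 to 0.93.

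Searched over 12383 other genes and 24 libraries, the genes whose log2 CPM correlated most with each member were as follows. Gja1 was most like Tram1 (r = 0.94), a translocon-associated protein of the endoplasmic reticulum, and Ubxn4 (0.93), with 0.72 and 0.63 after subtraction of group means. Aldh1l1 was most like Snx21 and Ctsz, a lysosomal cathepsin (both 0.91, and both 0.68 after subtraction). Aqp4 was most like Ednrb, the endothelin B receptor (0.96), and Slc4a4 (0.95). S100b was most like Gpr37l1 (0.99), an astrocyte receptor, and Metrn (0.98), and these fell to 0.86 and 0.85 without the 4 libraries with cerebellar markers. Slc1a2 was most like Cep170b and Sox4 (both 0.95), Slc1a3 like Maml2 and Lyn (both 0.93, and 0.82 and 0.68 without the 4), and Aldoc like Faap20 and Selenom (both 0.93, and 0.73 and 0.74 without the 4). For Gfap (Aldh6a1 and Adgrg1, both 0.79), Gjb6 (Acer2 0.79 and Capn2 0.78) and Glul (Epas1 0.79) the closest gene was under 0.80.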

How the data were processed

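The deposited values are raw read counts per Ensembl gene, which the authors made by trimming reads with cutadapt, mapping them with STAR and counting with htseq-count. The study's methods name GRCm39 and the submitters' processing notes mm10, and the annotation release, tool versions and strand setting are not given in the sources used here. Symbols and positions were taken from GENCODE vM39 (14427 of 14464 genes tested matched). All 24 libraries were fitted in 1 model with edgeR 4.0.16 in R 4.3.3 (TMM scaling, quasi-likelihood test, two-sided, a minimum of 30 counts in the library where a gene was highest, Benjamini-Hochberg adjustment over all genes tested, adjusted p under 0.05). Counts were normalised to a common effective depth of 16058300, the mean over libraries, log2 CPM used a prior count of 2, and the common biological coefficient of variation was 0.182. The fit was run on simulated independent counts with a fixed spread and no markers of other brain regions. That check does not cover the tissue differences between libraries seen here. The p-values rest on the spread between the libraries of a group, 1 per mouse, whatever its source.

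Alternatives were DESeq2 1.42.0, its size factors, filterByExpr, no filter, only the groups compared, dark libraries 1 and 6 left out, each library left out, the sample labels' light exposure and, added after the data were seen, 4 libraries left out. The members, gene lists and alternatives were chosen with earlier results of these data known. The text names all members, up to 2 genes per direction and astrocyte list with the largest change among called genes averaging 10 counts or more in light or psilocybin-dark against dark, the 2 genes most correlated with each member among those averaging 50 counts or more (1 such gene is not reported here), and the 2 most abundant markers of a list that moved with a result. Gad1, Gad2 and Slc32a1 were named in addition, after their values were seen. Python 3.11.15 and matplotlib 3.10.9 were used for plots.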

Additional observations from a re-analysis of the deposited data

Results flagged for a closer look

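In 11 of the 40 sets of 6 libraries (10 genes in 4 groups), 1 library stood far from the other 5, with Dixon's ratio of its gap to the whole range above the 95% critical value. Chance gives about 1 such set in 20 where the sets are independent, but these 40 share the same 24 libraries. The 11 can therefore not be weighed against that rate. Library 18 of the light group was high for S100b (ratio 0.821), Aqp4 (0.708) and Slc1a3 (0.631). Library 12 of the psilocybin-dark group was high for S100b (0.783) and low for Slc1a2 (0.668). Among the dark libraries, library 6 was high for Slc1a3 (0.656) and library 1 was high for Gja1 (0.808). All of these are libraries with cerebellar markers. Library 23 of the psilocybin-light group, which is not one of them, was high for Gja1 (0.743), Gfap (0.742), Gjb6 (0.703) and Aqp4 (0.681).

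The change with psilocybin differed with light for 2 genes by the interaction term of the edgeR fit. It was -0.63 for Slc1a2 (adjusted p = 0.0481) and -0.30 for Aldh1l1 (adjusted p = 0.0242). Of all genes, 8.75% were called for the interaction. The term includes the dark group, so the exposures and the hippocampal markers of that group cannot be told apart in it. The call of Slc1a2 was lost in 18 of the 24 fits without 1 library, and also with no filter, with filterByExpr and with DESeq2's size factors. The call of Aldh1l1 was lost with no filter.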

How the results depend on the processing

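Under the light exposure of the sample labels, the same 24 libraries gave 4 members called in light against dark (31.9% of all genes called). They gave 1 in psilocybin-dark against dark (0.608%), 0 in psilocybin-light against dark (0.456%) and 3 in psilocybin-light against light (24.7%). There were 2 (both now higher) in psilocybin-light against psilocybin-dark (6.38%), 4 in psilocybin-dark against light (38.4%) and 2 (both now positive) for the interaction (8.75%). In light against dark the log2 fold changes were then 0.78 for Aqp4, -0.39 for Aldh1l1, 0.36 for Gja1 and -0.21 for Glul. Aldh1l1 was at -0.018 in psilocybin-dark against dark, -0.11 in psilocybin-light against dark, 0.28 in psilocybin-light against light and 0.37 in psilocybin-dark against light. In psilocybin-light against dark Aqp4 was at 0.17 and Slc1a3 at 0.030, and in psilocybin-dark against light at -1.07 and -0.41. In psilocybin-light against psilocybin-dark Slc1a2 was at 0.51 and Gja1 at 0.48, and the interaction was 0.63 for Slc1a2 and 0.30 for Aldh1l1. These are the comparisons of the report under other names.

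No direction of a change called in the edgeR fit of all 24 libraries turned under any other alternative. S100b in psilocybin-light against dark was not called in that fit. It was at -0.79 and called by DESeq2 (adjusted p = 0.0431), but at 0.09 and not called by edgeR without the 4 libraries with cerebellar markers. Without the 4 libraries with cerebellar markers 2 members were called in psilocybin-light against light (2.34% of all genes called). With no filter, 31758 genes were tested, of which 463 were called in psilocybin-light against psilocybin-dark and 759 for the interaction. Of the members, 1 and 0 were then called, in place of 2 and 2. DESeq2's size factors and filterByExpr each left 1 member called for the interaction, since Slc1a2 moved to an adjusted p of 0.0508 and 0.0519. Of all genes, 1286 of 14464 and 1272 of 15628 were called in these fits. Leaving out 1 library at a time gave 4 to 5 called members in light, 2 to 6 in psilocybin-dark and 4 to 5 in psilocybin-light against dark, 0 to 1 in psilocybin-light against light, 1 to 2 in psilocybin-light against psilocybin-dark, 0 to 0 in psilocybin-dark against light and 1 to 3 for the interaction. The 6 came without psilocybin-dark library 12, where 28.8% of all genes were called. For the other such fits the share of all genes is not given here, so their counts cannot be weighed against it. The cause of the changes under these alternatives was not tested. No paired analysis was made, because the sample labels used here give no litter or other pairing. The paper states that littermates were assigned to the groups at random. Every member had 872 or more counts in each library. How much of the spread within a group came from counting error, from the mice or from the tissue taken was not tested.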
